A study of Arabidopsis thaliana with 18 samples.

Results

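The genes measured here are the protein-coding genes of the Arabidopsis thaliana plastid genome, read in roots. They were chosen by the rule that a probe set be annotated to 1 gene and that this gene lie on the plastid genome. The rule found 69 genes of the 13286 genes on the array that had a probe set of their own and matched the reference gene table, and each of the 69 had exactly 1 probe set. RefSeq lists 85 protein-coding genes and 44 rRNA and tRNA genes on this genome. A further 8 probe sets that each list several plastid genes were left out. Root RNA came from 6 genotypes with 3 arrays each, 18 arrays in all, and the plants had grown in vitro on 10 mM NH4NO3 for 8 days. The genotypes were chl1-5, chl1-9, chl1-12, T101A, T101D and col. The first 3 are alleles of NRT1.1, which takes up nitrate into the root and senses it and is also called CHL1. Of these, chl1-5 is a known deletion and chl1-9 a known point mutant. T101A and T101D carry changes at a threonine of NRT1.1, T101A so that no phosphate can be added there and T101D in imitation of the phosphorylated form. Col is the Columbia wild type. The labels give neither the lesion of chl1-12, nor the line or promoter that carries the T101 forms, nor whether the arrays of a genotype came from separate cultures. P-values therefore measure the spread between these samples, which may be technical.

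Plastids are the organelles that become chloroplasts in leaves. In roots they stay colourless and serve the synthesis of amino acids, fatty acids and starch, and the reduction of nitrite. Their small genome keeps genes for the photosynthetic complexes, for the plastid ribosome and for the core of a bacterial-type RNA polymerase. A phage-type polymerase made from nuclear genes also reads it, and is known for transcribing rpoB and accD. Most plastid genes lie in operons that are transcribed together and then cut. Plastid messages mostly carry no long poly(A) tail, while the labelling kit used for these arrays primes on poly(A), so an intensity need not follow the amount of a plastid transcript.

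Values are the authors' deposited intensities on a linear scale, each array having a trimmed mean of 500. A difference is given on the scale log2(intensity + 16), on which -1 is a 2-fold lower value, and which understates the change of dim genes. A gene is said to be called where limma gave a Benjamini-Hochberg adjusted p under 0.05 over all 22746 probe sets. Of 17 listed root markers, 6 had a probe set of their own. PYK10 among them, an abundant root protein of endoplasmic reticulum bodies, had intensities from 18062 to 23023. The only green-tissue marker with a probe set of its own among 17 listed was RCA, the Rubisco activase gene of the nucleus, at 574 to 1971. With 1 such marker, the purity of the root samples was not judged.

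Much of the plastid genome gave a signal well above background in these roots. Leaving out the third chl1-9 array, 48 of the 69 genes had a mean intensity above 100, where 61.4% of all probe sets lay, and 19 had a mean above 1000. Of the 21 at or under 100, 5 had a mean under 16, where background makes up much of a value. All 69 were tested. The genes with a mean above 100, called bright from here on, included 7 of 7 for proteins of the large ribosomal subunit, 5 of 6 for the ATP synthase, 5 of 7 for photosystem I and its assembly, and 11 of 15 for photosystem II. They also included 5 of 8 for the small ribosomal subunit, 3 of 4 for the RNA polymerase, 3 of 7 for the cytochrome b6f complex and its assembly, and 4 of 10 for the NADH dehydrogenase-like complex. Levels of different genes are not compared, since each probe set has its own response.

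The third chl1-9 array stood apart from the other 17. For 47 of the 69 genes it was the lowest of all 18 arrays, as it was for 8.91% of all probe sets. For 31 it lay at least 2-fold under the lowest of the other 17 arrays, as 0.233% of all probe sets did. These 31 genes made up most of the 53 probe sets on the array that lay so low there. Another 8 of the 53 list several genes, 7 list none and 2 belong to the mitochondrial genome. The summed intensity of the 69 genes was 0.130% of all intensity in that array, and 0.361% to 0.507% in the others.

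**Figure D1:**
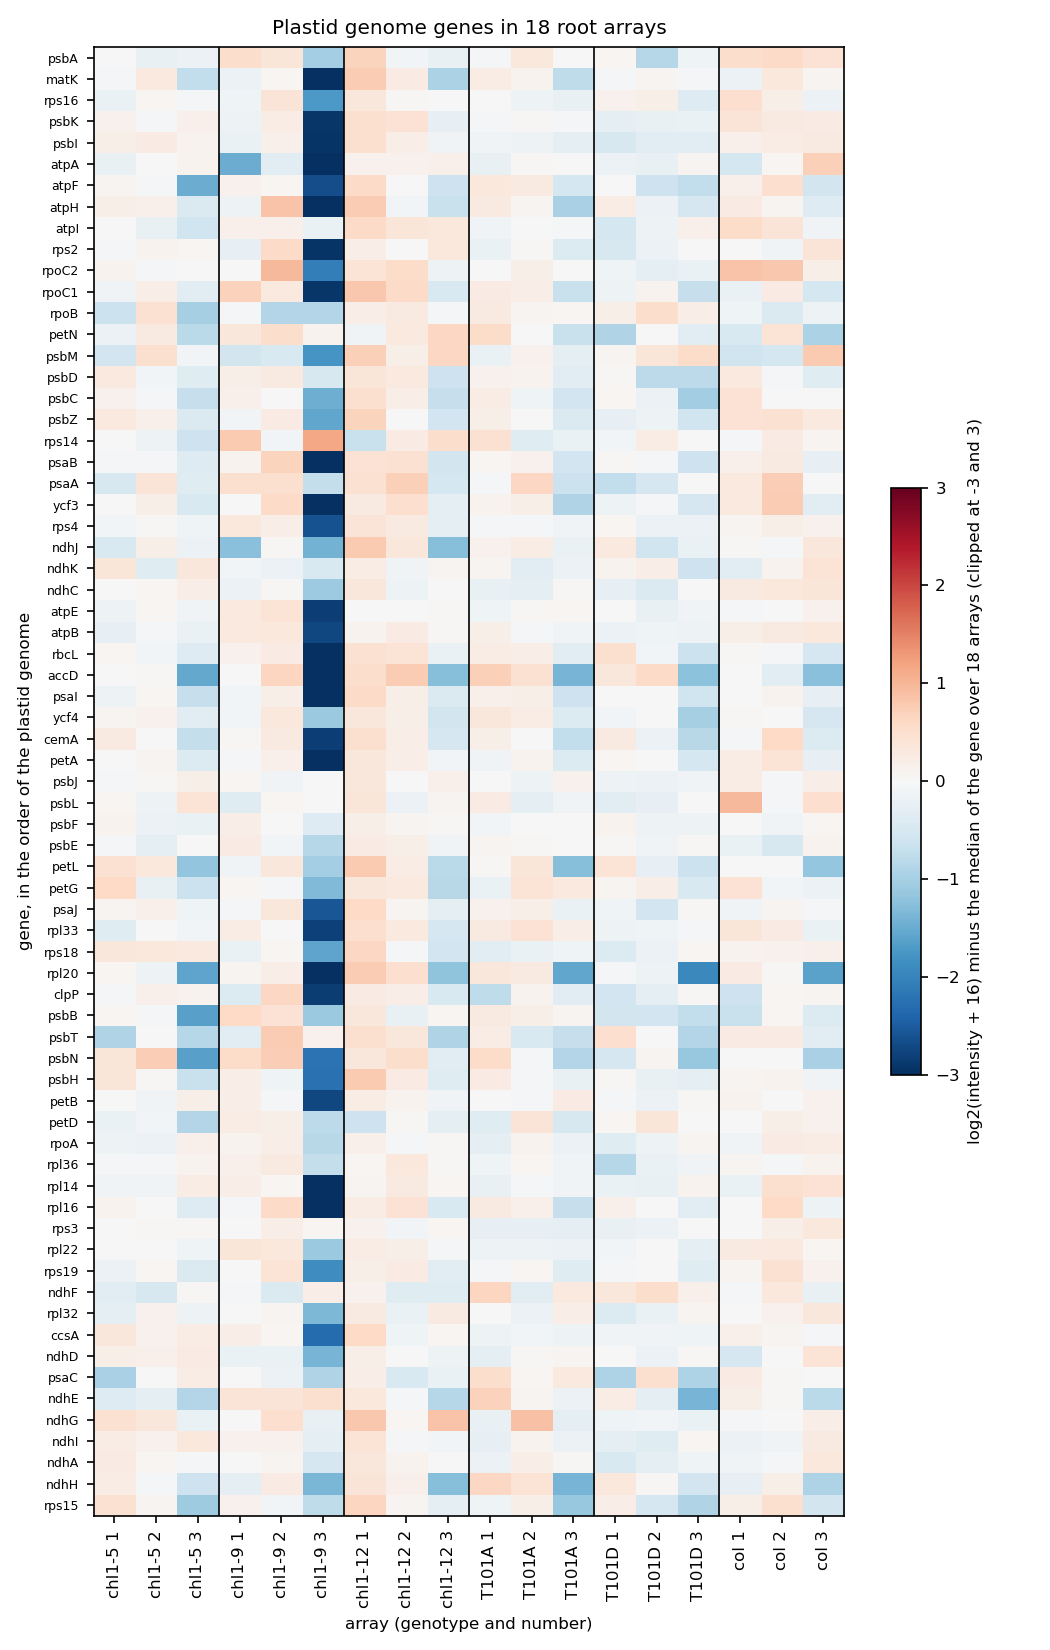
Each row is a plastid gene in the order of the plastid genome and each column an array, and colour gives log2(intensity + 16) minus the median of that gene over the 18 arrays. The column of the third chl1-9 array is the darkest blue, and weaker blue cells stand in the other columns numbered 3, at rpl20 and accD among others.

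Set against the first and second chl1-9 arrays, the third was at least 2-fold lower for 46 of the 69 genes, of which 39 were among the 48 bright genes. The same held for 1.53% of all probe sets. This is a comparison of 1 array with 2, and no test is given for it. accD, which encodes a subunit of the acetyl-CoA carboxylase that starts fatty acid synthesis, had an intensity of 4.71 in the third array, against 866 and 1342 in the first and second. rpl16, a protein of the large ribosomal subunit, had 62.8, against 1511 and 2304. ycf3, an assembly factor of photosystem I, had 14.6, against 416 and 622. In each of these genes the third array lay far below all the other 17.

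Genes for the enzymes and complexes of photosynthesis were among those lower in the third array. psaB, a reaction centre protein of photosystem I, had 136 there, against 1826 and 2694. rbcL, the large subunit of Rubisco, had 37.0, against 539 and 588. Of the bright genes of photosystem I, 5 of 5 were at least 2-fold lower, with a median difference of -3.45. For the ATP synthase this held for 5 of 5, with a median of -3.04. Among them was atpE, which encodes the epsilon subunit and had an intensity of 1195, against 10489 and 11349. The cytochrome b6f group had 3 of 3 lower, among them petB, the cytochrome b6 gene, at 326 against 2576 and 2178.

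Other bright genes of the same genome were less than 2-fold lower or lay close to the first and second arrays. The psbE operon encodes both subunits of cytochrome b559 (psbE and psbF) and small proteins of photosystem II (psbL and psbJ), and 0 of its 4 genes was 2-fold lower, with a median difference of -0.23. psbE was the lowest of them at -0.93, with an intensity of 342 in the third chl1-9 array, against 753 and 588 in the first and second. psbF had 789, against 1187 and 1045. psbJ, another of the 4, had 918, against 951 and 849. psbL had 239, against 179 and 245. rps3, a protein of the small ribosomal subunit, had 3632, against 3480 and 4005. ndhI, a subunit of the NADH dehydrogenase-like complex, had 2279, against 3007 and 3043. The bright genes of that complex had a median difference of -0.78, and those of photosystem II a median of -1.46.

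Genes of 1 operon could differ widely in this array. The 7 measured genes of the rpl23 operon, a block of ribosomal protein genes that ends in rpoA, ranged from -4.58 for rpl16 to -0.04 for its neighbour rps3. rpl14, which lies on the other side of rpl16, had 128 in the third array, against 2443 and 2208. rpl36 had 1092, against 2000 and 2178, and rpoA, the alpha subunit of the polymerase, 908 against 1776 and 1875. By contrast, the 4 bright genes of the atpI operon lay within a narrow range of low values, from -3.64 to -2.45. Of the genes known to be read by the nuclear-encoded polymerase, accD was low, as given above. rpoC1 and rpoC2, which follow rpoB in its operon and encode the beta' and beta'' subunits, had 37.4 and 28.1 in the third array. rpoC1 had 629 and 477 in the first and second arrays, and rpoC2 169 and 351. rpoB itself was dim, with 3.995 in the third chl1-9 array, against 19.2 and 3.85, and its difference was -0.40.

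**Figure D2:**
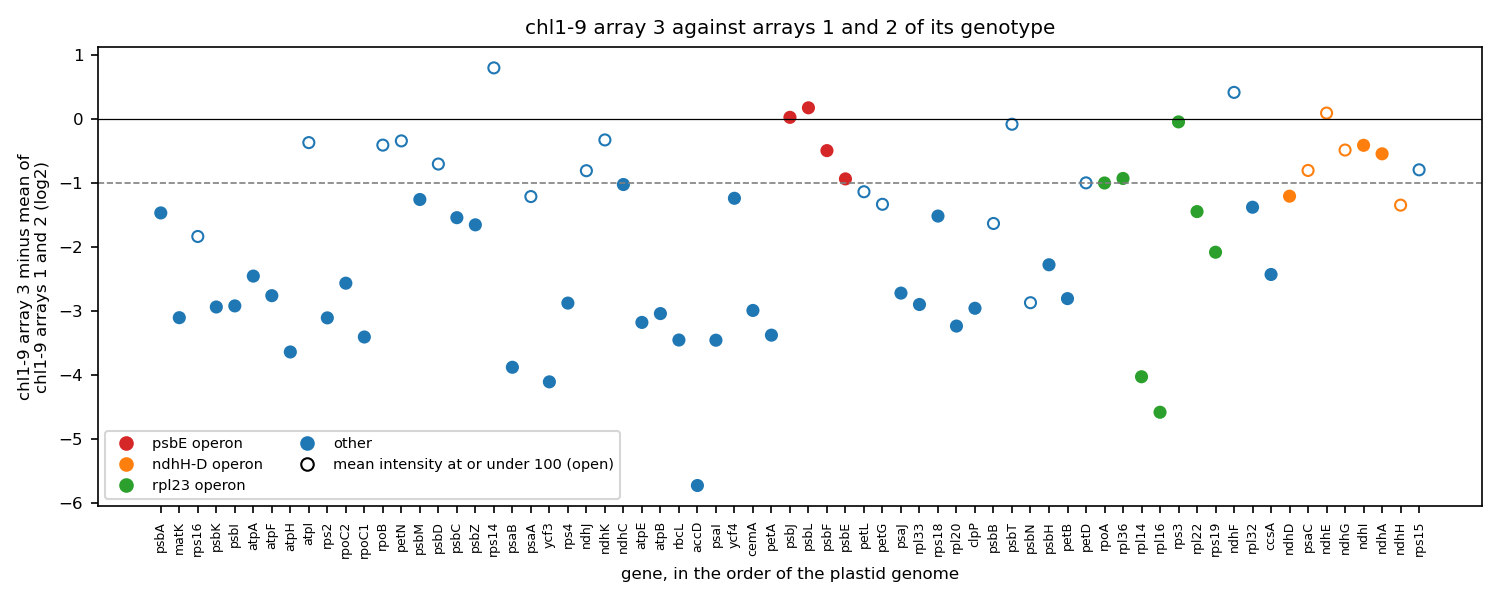
Points give the third chl1-9 array minus the mean of the first and second on the log2(intensity + 16) scale, for 69 genes in the order of the plastid genome. Filled points are genes with a mean intensity above 100, and the dashed line marks -1. accD lies lowest, the 4 genes of the psbE operon lie above the line, and rps3 at -0.04 stands beside rpl16 at -4.58.

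Other measures of the third chl1-9 array also moved. The control probe set for 25S rRNA, another RNA without a poly(A) tail, had an intensity of 1883 there and 5837 to 9478 in the other 17 arrays. The signal of the 5′ probe set divided by that of the 3′ probe set was 0.705 for GAPDH, against 0.877 to 1.13 elsewhere. It was 0.302 for actin, against 0.318 to 0.397, and 0.673 for ubiquitin, against 0.710 to 0.836. The 16 mitochondrial genes had a median deviation of -0.59 from their medians over all arrays, against -0.29 to 0.27 in the others, and 7 of the 16 were lowest in that array. The part of these measures in the plastid values was not tested.

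**Figure D3:**
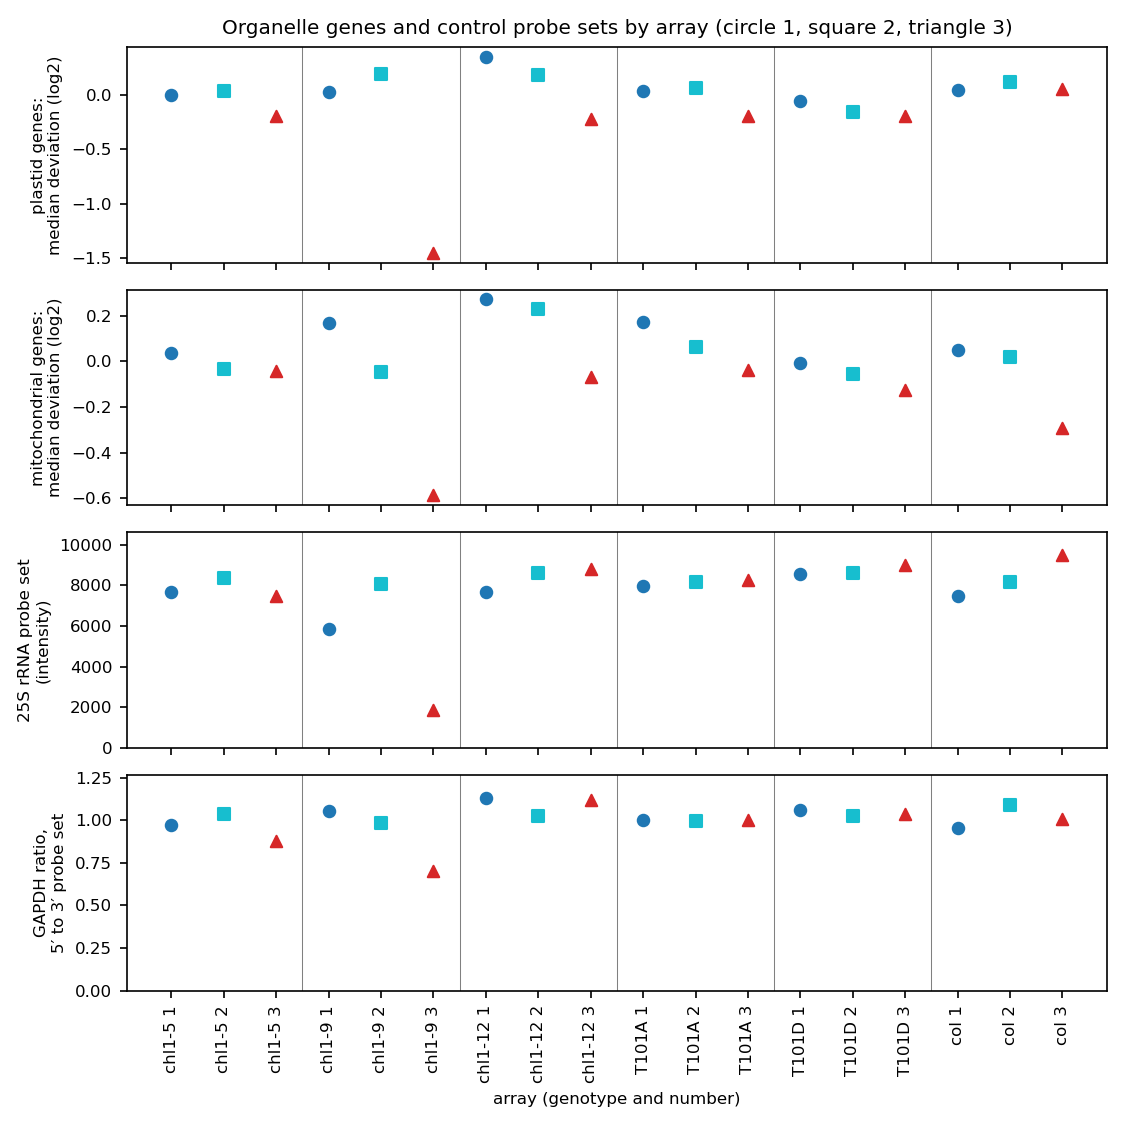
From top to bottom the panels give, for each of the 18 arrays, the median deviation of the 69 plastid genes and of the 16 mitochondrial genes on the log2(intensity + 16) scale, the 25S rRNA intensity and the GAPDH ratio. The third chl1-9 array is the lowest in all 4 panels, at -1.45, -0.59, 1883 and 0.705.

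A weaker difference of the same direction was found for part of the plastid genes in the arrays numbered 3 of the other genotypes. The labels do not say what the number stands for, and this comparison was made after the values were seen. With genotype in the model and the third chl1-9 array left out, 43 of 22746 probe sets differed between arrays numbered 3 and those numbered 1 and 2, which is 0.189%. Plastid genes made up 17 of the 43, or 24.6% of the 69, and all 17 fell. Of the 43, another 4 were mitochondrial genes and 3 were probe sets that list several plastid genes. The median over the 69 genes was -0.27, against 0.01 over all probe sets, with 50 genes negative and 19 positive. Leaving out the whole genotype chl1-9 as well cannot change these differences, since its first and second arrays inform only number 2 against 1. Only the estimate of the spread differs in that fit, and 16 plastid genes were called, where 0.176% of all probe sets were. With all 18 arrays 8 were, where 0.154% were. Between arrays numbered 2 and 1, 0 plastid genes were called by limma, where 0.501% of all probe sets were, and 8 had an unadjusted p under 0.05, where 14.1% did. The result of 17 genes rested on few arrays. Without 1 array at a time the count of plastid genes ran from 6 to 16, where 0.0835% to 0.176% of all probe sets were called. It was 6 without the array numbered 3 of col, of chl1-12 or of T101D.

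Within single genotypes, the array numbered 3 was at least 2-fold lower than the mean of the other two for 7 plastid genes in chl1-5, where 0.765% of all probe sets were. The count was 12 in chl1-12 (0.659%), 8 in T101A (0.699%), 4 in T101D (0.897%) and 3 in col (0.791%). The plastid genes as a whole were not lower in every array numbered 3. Their summed share of all intensity was 0.466% in that of col, against 0.416% and 0.455% in arrays 1 and 2. In T101D it was 0.380%, against 0.376% and 0.373%. In chl1-5, chl1-12 and T101A the array numbered 3 had the lowest share of its genotype.

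rpl20, a protein of the large ribosomal subunit, had an intensity of 40.0 in the array numbered 3 of chl1-5, 57.0 in that of chl1-12, 41.1 in T101A, 28.1 in T101D and 39.2 in col. In the 12 arrays numbered 1 and 2 it had 137 to 269, with a median of 163. The groups did not overlap, and the difference was -1.77 ± 0.06 (SE, limma adjusted p = 1.3e-07). accD had 288 to 358 in the arrays numbered 3, against 675 to 1468, a difference of -1.64 ± 0.14 (adjusted p = 0.000311). petL, a small subunit of the cytochrome b6f complex, had 18.3 to 37.6, against 54.0 to 127, and also did not overlap. Its difference was -1.25 ± 0.15 (adjusted p = 0.00624).

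Along the plastid genome, 6 genes that follow each other from rbcL to petA were all called. They are rbcL, accD, psaI, ycf4, cemA and petA. The last 4 form the psaI operon, which encodes a photosystem I subunit, an assembly factor, an envelope protein and cytochrome f, and their differences ran from -0.82 to -0.46. The next 4 genes, those of the psbE operon, had differences from -0.05 to 0.13 and 0 calls. Photosystem I and its assembly had 4 of 7 genes called (psaB, psaI, ycf3 and ycf4). The other called genes were psbC, psbN, ndhE, ndhH, rps15, atpF and rpoC1, and adjusted p for the 17 lay between 1.3e-07 and 0.0457. Bright genes with small differences included atpE at 0.05 ± 0.06 and petB at 0.09 ± 0.07. The genes of this comparison were named after their values were seen.

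**Figure D4:**
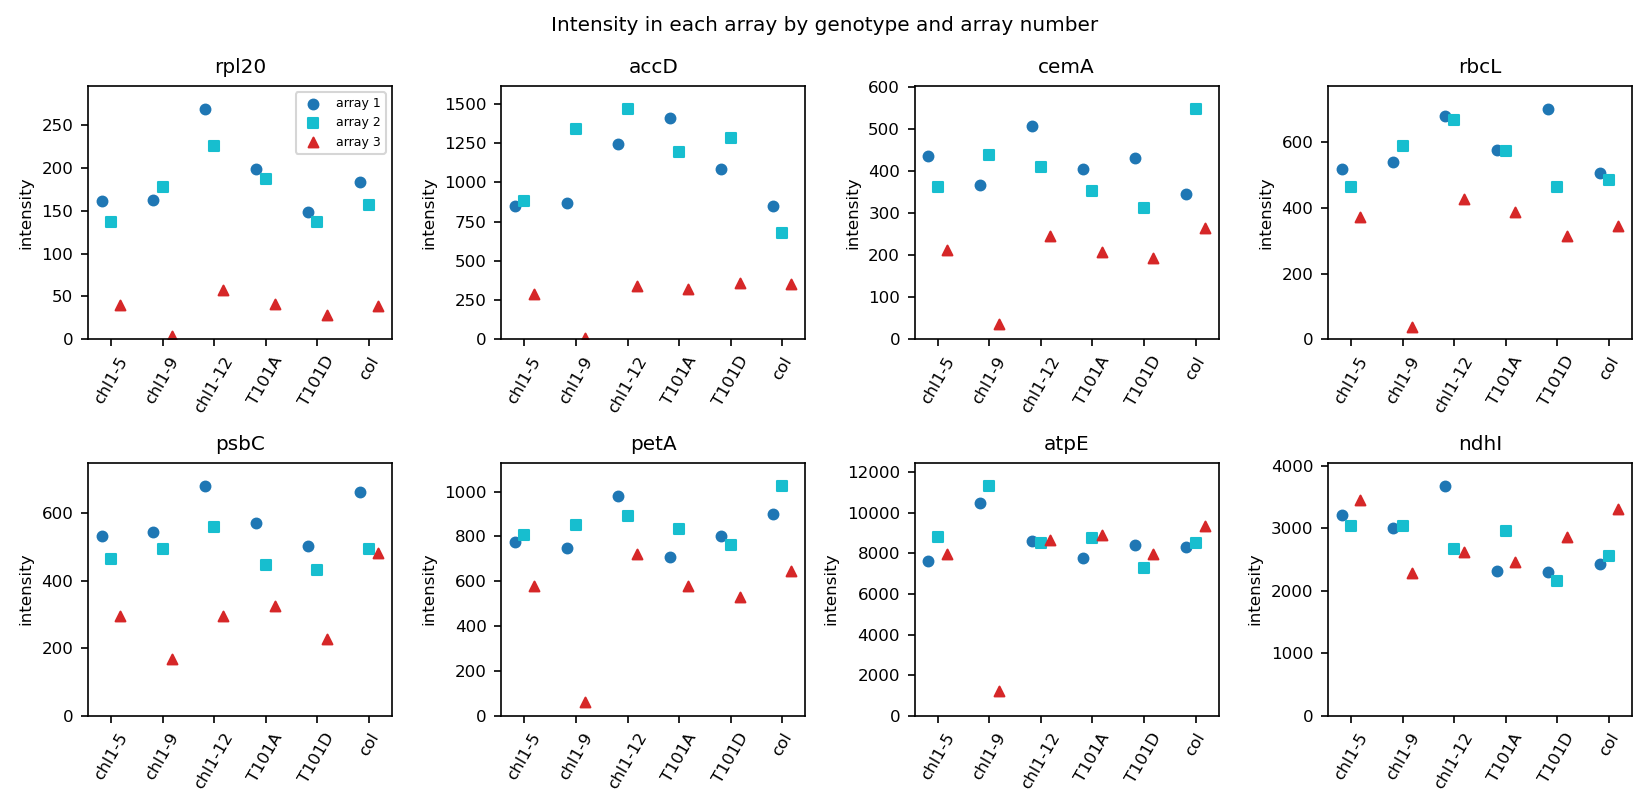
Each panel gives the intensity of 1 gene in the 18 arrays by genotype, with circles, squares and triangles for arrays numbered 1, 2 and 3. rpl20, accD, cemA, rbcL, psbC and petA have low triangles in the genotypes other than chl1-9 as well. atpE and ndhI do not, and of these atpE is low in the third chl1-9 array alone, at 1195.

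The fall in arrays numbered 3 and the low values of the third chl1-9 array partly concerned the same genes. Over the 48 bright genes, the difference of the number in the other 5 genotypes and the deficit of the third chl1-9 array had a Pearson's r of 0.58 and a Spearman's rho of 0.56. Over all 69 they were 0.34 and 0.30. Genes are not independent replicates, and genes of 1 operon share transcripts, so these are descriptions. psbM had a positive difference in arrays numbered 3 that was not called (0.32 ± 0.21), and 958 in the third chl1-9 array, against 2245 and 2366 in the first and second.

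The comparisons of genotypes ask whether a change in NRT1.1 alters plastid transcripts in roots on ample ammonium nitrate. Over the 5 comparisons with col and that of T101A with T101D, the only call among the 69 genes was rps3, in T101A alone. Of all probe sets, 0.0352% to 3.39% were called in these comparisons, and 2.23% in T101A. The 5 comparisons with col share the same 3 col arrays, so their values are not independent of each other. In bulk root RNA, fewer plastids or plastid-rich cells and less transcript in each cannot be told apart. A moderated F test over the 5 differences from col called 0 of the 69 genes, where 2.63% of all probe sets were called, and 4 had an unadjusted p under 0.05. Without the third chl1-9 array it called 1, atpB (adjusted p = 0.0344), where 2.32% were called. With the array number as a block as well, it called 3, where 3.25% were called.

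**Figure D5:**
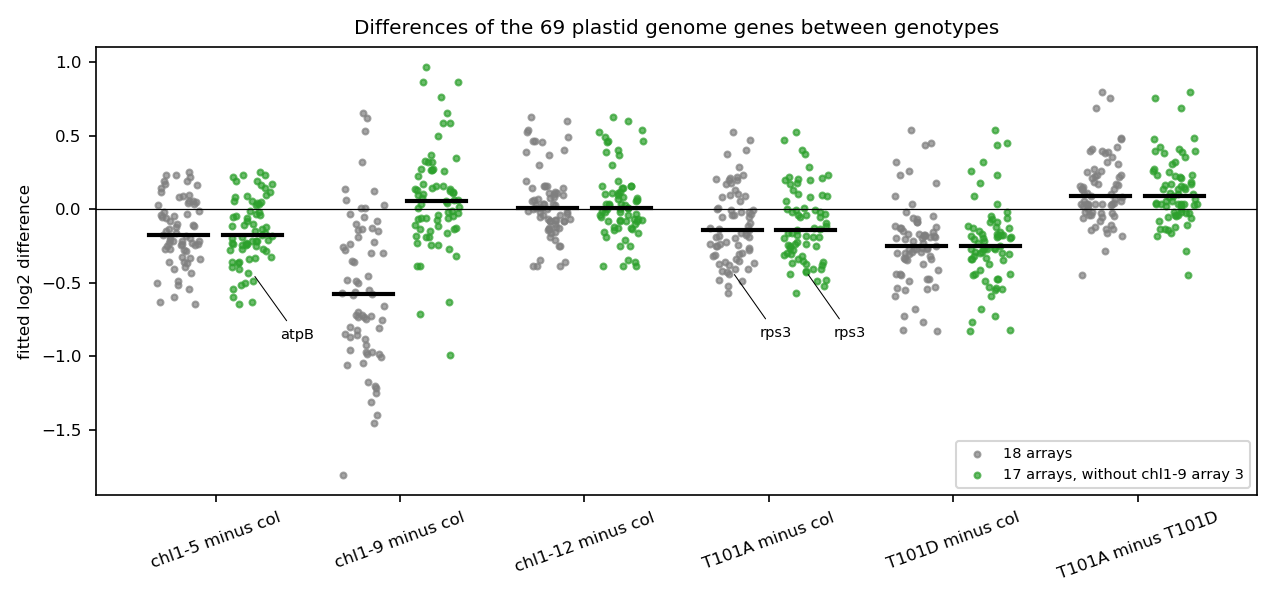
Points give the fitted difference of each of the 69 genes on the log2(intensity + 16) scale in 6 comparisons, in grey over 18 arrays and in green without the third chl1-9 array. Black bars are medians, and names mark the called genes. The median for chl1-9 minus col is -0.58 with that array and 0.05 without it, and T101D minus col has a median of -0.25 with both.

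In T101D, plastid genes leaned lower than in col without any being called. limma called 0 of the 69, where 0.255% of all probe sets were called, and 6 had an unadjusted p under 0.05, where 10.6% of all did. Differences were negative for 60 genes and positive for 9, with a median of -0.25, against a median near 0 over all probe sets. For 17 genes all 3 T101D arrays lay below all 3 col arrays, which is 24.6% of the 69 and 9.63% of all probe sets. The median difference between arrays of 1 number was -0.13, -0.27 and -0.28. Without the third chl1-9 array, 14 genes had an unadjusted p under 0.05, where 11.4% of all did, and 0 were called, where 0.211% were. With the array number as a block in addition, 24 had one, where 3094 of 22746 probe sets did. In that fit 0 were called, where 0.33% were.

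The negative T101D differences were found in most functions of the genome, though not for every gene. All 15 measured ribosomal protein genes were negative, with a median of -0.30 over the 8 of the small subunit and -0.33 over the 7 of the large subunit. Those of the 6 ATP synthase genes and the 7 photosystem I genes were all negative too. The other groups were mixed, with 5 negative and 2 positive for cytochrome b6f and 1 of each for Rubisco and envelope. Such groups were not particular to T101D: the ATP synthase genes were also all negative in chl1-5 and T101A, against the same col arrays. psbA, which encodes the D1 protein of photosystem II, had 93.1, 42.0 and 79.7 in T101D, against 135, 141 and 125 in col. The groups did not overlap, and the difference was -0.82 ± 0.34 (limma adjusted p = 0.401). rpoC2 had 154, 136 and 146 in T101D, against 323, 312 and 194 in col, a difference of -0.83 ± 0.50 (adjusted p = 0.601). psbZ, a small photosystem II protein, had 1034, 1105 and 808 in T101D, against 1669, 1693 and 1502 in col. Its difference was -0.72 ± 0.39 (adjusted p = 0.54). rpoB, the beta subunit of the polymerase, lay highest at 0.54 ± 0.29 (adjusted p = 0.546), but its intensity was 25.1 to 36.6 in T101D and 10.9 to 17.4 in col.

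In T101A, 1 of the 69 genes was called, where 2.23% of all probe sets were, and 3 had an unadjusted p under 0.05, as 3648 of all 22746 probe sets did. rps3 had 2920, 2962 and 2862 in T101A, against 3460, 3975 and 4348 in col. All T101A arrays lay below all col arrays, and rps3 fell by 0.42 ± 0.10 (limma adjusted p = 0.0327). It had 2980, 3092 and 3465 in T101D. The call was lost without any 1 of the T101A arrays or without the second or the third col array, with adjusted p from 0.0645 to 0.146, and held at 0.0138 without the first col array. Over all alternatives the adjusted p ran from 0.0138 to 0.374. Differences were negative for 48 genes and positive for 21, with a median of -0.14. All 8 small-subunit genes were negative, with a median of -0.32. For 12 genes, 17.4% of the 69, all T101A arrays lay below all col arrays, as 11.9% of all probe sets did. rpl22 had 1937, 1922 and 1903 in T101A, against 2583, 2652 and 2245 in col. Without the third chl1-9 array 1 gene was called as well, where 2.49% were. With the array number as a block in addition, 2 were called, rps3 and rpl22, where 4.12% were.

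In chl1-5, 0 genes were called by limma with all arrays, where 2.18% of all probe sets were, and 1 had an unadjusted p under 0.05, where 13.5% did. atpB, which encodes the catalytic beta subunit of the ATP synthase, had 4276, 4864 and 4405 in chl1-5, against 5766, 6165 and 6387 in col. It had 4524, 4635 and 4595 in T101D, and 751 in the third chl1-9 array. The difference in chl1-5 was -0.44 ± 0.54 with that array (limma adjusted p = 0.798) and -0.44 ± 0.09 without it (adjusted p = 0.0235). Over all alternatives its adjusted p ran from 0.0235 to 0.895. Without that array 1 gene was called, where 2.16% were, and 6 had an unadjusted p under 0.05, where 14.4% did. With the array number as a block as well, 2 were called, atpB and rps19, where 3.22% were. Differences in chl1-5 were negative for 50 genes and positive for 19, with a median of -0.18. For 9 genes, 13.0%, the groups did not overlap and chl1-5 was lower, as for 12.5% of all probe sets.

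In chl1-9 the result changed with the third array. With it the median over the 69 genes was -0.58, with 59 negative and 10 positive. Without it the median was 0.05, with 30 negative and 39 positive. limma called 0 genes either way, where 3.39% of all probe sets were called with the array and 2.55% without it. With the array 7 genes had an unadjusted p under 0.05, where 15.5% of all did, and without it 5, where 14.6% did. For 6 genes the 3 chl1-9 arrays all lay below the 3 of col, as for 9.08% of all probe sets. Between arrays of 1 number the medians were 0.01, 0.02 and -1.54. rpl14 had the difference -1.45 ± 0.72 with the array, and rpl16 -1.40 ± 0.85. atpA, the alpha subunit of the ATP synthase, was low in the first chl1-9 array as well, with 183, 421 and 38.1, against 370, 562 and 890 in col. Its difference was -1.81 ± 0.51 (adjusted p = 0.0679) with the third array and -0.99 ± 0.31 (adjusted p = 0.132) without it. Without the second chl1-9 array instead, atpA had an adjusted p of 0.00521 and 2 plastid genes were called, where 2.73% of all probe sets were. Over all alternatives its adjusted p ran from 0.00521 to 0.477.

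In chl1-12 the median difference of the 69 genes was 0.01, with 37 positive and 32 negative, and limma called 0, where 1.50% of all probe sets were called, and 0 without the third chl1-9 array, where 1.64% were. With the array number as a block in addition, 1 was called, rpl20 at 0.46 ± 0.09 (limma adjusted p = 0.0228), where 2.29% were. With all 18 arrays 0 had an unadjusted p under 0.05, where 11.1% of all did. For 0 genes did all 3 chl1-12 arrays lie below those of col, as for 10.1% of all probe sets. Between arrays of 1 number, however, the median was 0.27 for number 1, -0.01 for number 2 and -0.22 for number 3. psbM, a small photosystem II protein, lay highest, with 5425, 3729 and 5042 in chl1-12, against 2143, 2278 and 5659 in col. The third col array lay above all 3 of chl1-12, and the difference was 0.62 ± 0.39 (adjusted p = 0.619).

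Set against each other, T101A and T101D had 0 called plastid genes, where 0.0352% of all probe sets were called (0.0308% and again 0 plastid genes without the third chl1-9 array), and 0 had an unadjusted p under 0.05, where 6.53% did. The median was 0.09, with 50 genes higher in T101A and 19 lower. psbB, the CP47 antenna protein of photosystem II, lay highest, with 52.8, 48.2 and 44.4 in T101A, against 22.9, 22.3 and 17.9 in T101D. Those arrays did not overlap, and the difference was 0.80 ± 0.43 (limma adjusted p = 0.814). psaC, the iron-sulphur subunit of photosystem I, came next at 0.75 ± 0.37, from intensities of 19.7 to 33.3 in T101A and 1.91 to 31.9 in T101D.

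Nuclear genes for the same complexes had a median below 0 against col in all 5 lines. The 5 measured nuclear subunits of photosynthetic complexes, of 24 listed, summed to 1255 to 1691 in T101A and to 1132 to 1197 in T101D, against 1989 to 2924 in col. Their median difference was -0.70 in T101A and -0.89 in T101D, and it was -0.44 in chl1-9, -0.29 in chl1-12 and -0.09 in chl1-5. limma called 0 in each. An unadjusted p under 0.05 was found for 4 of 5 in T101A, where 3648 of all 22746 probe sets had one. The count was 5 of 5 in T101D (10.6% of all), 3 of 5 in chl1-9 (15.5%) and 0 in chl1-12 and chl1-5. Without the third chl1-9 array it was 1 of 5 in chl1-9, where 14.6% of all had one, and the other counts stayed. RCA had 991 to 1324 in T101A and 574 to 889 in T101D, against 1316 to 1971 in col, and its T101D difference was -1.11 ± 0.24 (limma adjusted p = 0.0744). Of the 6 measured root markers, limma called 4 higher in T101A, where 2.23% of all probe sets were called, and 1 in T101D (0.255%). It called 4 higher in chl1-5 (2.18%), 2 in chl1-9 (3.39%) and 2 in chl1-12 (1.50%). Without the third chl1-9 array 1 was called in chl1-9, where 2.55% of all were. With all 18 arrays the median difference of the 6 lay between 0.37 and 0.69 in all 5 lines. The root markers summed to 29490.4 to 30405 in T101A and 26121 to 29323 in T101D, against 23172 to 25079 in col. In chl1-5 they summed to 27023 to 30793. PYK10 alone, at 18062 to 23023 over the arrays, made up most of each sum. The rise was uneven over these markers. AT3G49960 had 484 to 664 in col and 1373 to 1690 in T101A, while PYK10 had 18062 to 20509 and 20898 to 22772. EXPA7 had 644 to 867 in col and 877 to 982 in T101A. The marker list was chosen with earlier results of these data known, so its calls do not measure the share of root tissue. The part of green tissue or of root cell types in the plastid values was not tested. Nuclear genes for plastid ribosomal proteins were measured for 8 of 32 listed. Of these, limma called 3 lower in T101A, where 2.23% of all probe sets were called, and 1 in T101D, where 0.255% were. AT1G29070 had 402, 391 and 386 in T101A and 329, 401 and 453 in T101D, against 561, 585 and 575 in col. It fell by 0.53 in T101A (adjusted p = 0.0127) and by 0.53 ± 0.10 in T101D (adjusted p = 0.0428). Without the third chl1-9 array the T101D call was lost (adjusted p = 0.0556). The third chl1-9 array, by contrast, did not stand apart in this list: AT1G29070 had 485 there, against 430 and 482 in the first and second.

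Among themselves the plastid genes varied to different degrees. psbJ, psbF and rps3 had the narrowest SD over the 18 arrays, at 0.15, 0.15 and 0.17 on the log2(intensity + 16) scale. accD, rpl16 and rpl20 had the widest, at 1.47, 1.08 and 1.06. Without the third chl1-9 array, rpl16 came to 0.35, accD to 0.83 and rpl20 to 0.87. The genes whose profile over the 17 arrays was most like the median profile of all 69 were psaI, rpl20 and psaB, with Pearson's r of 0.93, 0.92 and 0.91. Bright genes of 1 listed operon had a median r of 0.49 over 47 pairs, and the other 1081 pairs one of 0.31. All pairs share the same 17 arrays, the genotypes and the numbers, so these too are descriptions.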

How the data were processed

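Root RNA of 18 samples in 6 genotypes was measured on Affymetrix arrays. Per the labels' protocols, RNA was extracted with TRIzol and labelled with biotin by a 3' IVT Express kit. The authors deposited 1 table of linear intensity values for 22810 probe sets. How these intensities were summarised and corrected for background is not given in the sources used here. Every array had a mean of 500 after trimming 2% at each end. Differences are therefore relative to all transcripts.

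After removal of 64 control probe sets, 22746 were tested. Genes were named from the platform annotation and matched to a RefSeq table of assembly TAIR10.1, used for names, order and chromosome only. Plastid genes were matched by locus or chromosome, and each had 1 probe set, so the choice of the brightest changed nothing. Mitochondrial genes were matched by symbol. Groups and array numbers came from sample titles.

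Values were taken as log2(value + 16), and limma 3.58.1 in R 4.3.3 fitted 1 coefficient per genotype over 18 arrays, with and without the third chl1-9 array. P-values were adjusted by Benjamini-Hochberg over all probe sets in each of 6 comparisons, and a gene was called at an adjusted p under 0.05. The fit was tested on simulated data with independent noise for each probe set and no outlying array. That test therefore does not cover genes that vary together or an array like the third of chl1-9. Arrays have no depth, so precision is set by how many there are. Within genotypes, probe sets had a median SD of 0.20 (log2). Python 3.11.15, pandas 2.3.3 and matplotlib 3.10.9 made tables and plots.

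The genes, the lists and the rules were chosen with earlier results of these data known. By rule, 39 of the 69 genes were marked for naming. They were those called, the 2 brightest of each function, and the 3 highest and 3 lowest differences per comparison. Also marked were the 3 widest and 3 narrowest SDs, genes known for the nuclear-encoded polymerase, and the 3 most like the median profile. Not all of them are described above. The marked genes matK, ccsA and ndhC, bright in their functions, were left out. Also left out were clpP, petD, petN, psaA, psbT and rps14, each extreme in some comparison, such as psaA in T101D at -0.76. Other genes were chosen after their values were seen. So were the comparison of array numbers with its alternatives and the fits without the arrays numbered 3. The same holds for the block without the third chl1-9 array and the block in the F test. Lists of sigma factors, polymerase-associated proteins, RNA processing and plastid signalling genes had 0 probe sets of their own here. The 1 measured phage-type polymerase gene, AT5G15700, was called in none of the 6 comparisons. Alternatives were 2 other pseudocounts, a filter on dim probe sets, quantile normalization, median centring, the 6 arrays compared alone, array weights, the array number as a block, and leaving out each array.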

Additional observations from a re-analysis of the deposited data

How the results depend on the processing

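Of 130 counts and medians of plastid genes under alternatives other than leaving out 1 array, 119 stayed within a set bound and 11 moved. The bound for a count was 1.5 times the reported count, and many counts that stayed were 0 in both fits. For a median it was the SD of the arrays' median deviations in the more variable of the 2 genotypes. For chl1-9 that SD includes the third array, so its bound was wide. Its median of 0.00 without the 6 arrays numbered 3 was counted as within the bound, against -0.58. Counts over all probe sets are given apart. The share of all probe sets called is given in brackets. Plastid genes called in chl1-9 were 1 with a pseudocount of 64 (4.42%) and 1 above the lowest quartile of probe sets (5.62%), against 0 (3.39%). In T101A they were 0 with arrays centred on their medians (2.62%), 0 with the 6 arrays alone (0.198%) and 0 without the 6 arrays numbered 3 (0.149%), against 1 (2.23%). The T101D median was -0.172 with a pseudocount of 64, against -0.253. Without the third chl1-9 array the F test called 1 (2.32%), against 0 (2.63%), and rpl16 reversed in chl1-9 to 0.123, against -1.402. Over all arrays left out in turn, rpl16 ran from -2.316 to 0.123. For arrays numbered 3, all 18 arrays gave 8 plastid genes (0.154%), against 17 (0.189%).

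Same-numbered arrays correlated at 0.01 to 0.142 in their deviations over all probe sets, not above 0.1 throughout. On that ground the number was not treated as pairing in the main fits. Any effect of the number on plastid genes therefore stays in the residual spread of those fits. Over the 69 plastid genes alone the correlations were higher, from 0.237 to 0.715 for chl1-5, chl1-12, T101A and T101D with col, and 0.05 to 0.278 for chl1-9 with col and -0.013 to 0.662 for T101A with T101D. With the number as a replicate block, plastid genes called stayed 0 in chl1-5 (2.97% of all probe sets), chl1-9 (4.69%), chl1-12 (2.18%), T101D (0.4%) and T101A minus T101D (0.0528%). In T101A the count stayed 1 (3.86%). All probe sets called became 879 in T101A and 91 in T101D. With the replicate block and without the third chl1-9 array, plastid calls were 2 in chl1-5 (3.22% of all probe sets), 1 in chl1-12 (2.29%), 2 in T101A (4.12%) and 3 by the F test (3.25%). In that fit 24 of the 69 genes had an unadjusted limma p under 0.05 in T101D, where 3094 of all probe sets did. In each other comparison 5 to 13 did, where 1909 to 4353 of all did.

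Leaving out 1 array at a time gave 0 to 1 plastid genes called in chl1-5, where 0.95% to 2.16% of all probe sets were called. The count was 0 to 2 in chl1-9 (1.99% to 3.01%), 0 to 0 in chl1-12 (0.796% to 1.64%) and 0 to 1 in T101A (0.994% to 2.49%). It was 0 to 0 in T101D (0.0528% to 0.352%) and in T101A minus T101D (0.0176% to 0.0572%), and 6 to 16 for arrays numbered 3 (0.0835% to 0.176%). Medians ran from -0.224 to -0.08 in chl1-5, -0.951 to 0.054 in chl1-9, -0.12 to 0.187 in chl1-12, -0.198 to -0.068 in T101A, -0.282 to -0.189 in T101D and 0.054 to 0.227 in T101A minus T101D. All probe sets called in T101D ran from 12 without the third col array to 80 without the first.

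Calls over all probe sets moved by more than 1.5 times with the 6 arrays alone, to 135 (chl1-5), 160 (chl1-9), 95 (chl1-12), 45 (T101A), 4 (T101D) and 0 in T101A minus T101D. Without the 6 arrays numbered 3 they were 80, 172, 83, 34, 9 and 4 in the same order. With array weights chl1-5 had 867, chl1-12 had 536, T101A had 819 and T101D had 111. In T101D, pseudocounts of 1 and 64 gave 37 and 99, the lowest-quartile filter 116 and median centring 105. The cause of these changes was not tested, beyond the smaller number of arrays where some are left out. Signals near background limit the 21 genes at or under 100.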

Other observations

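The mitochondrial genome, the other organelle genome of the root, was read by probe sets of 16 genes. Between genotypes limma called 0 of the 16 in any of the 6 comparisons, and at most 1 in each had an unadjusted p under 0.05 (at most 2, in chl1-5, without the third chl1-9 array). Their median differences from col ran from -0.04 in chl1-9 to 0.19 in chl1-12, and without the third chl1-9 array the chl1-9 median was 0.16. In arrays numbered 3, 4 of the 16 fell, with a median of -0.13 over all 16. ccb452, a gene for the maturation of cytochrome c, had 142 in the array numbered 3 of chl1-5, 138 in chl1-12, 159 in T101A, 131 in T101D and 129 in col, and 194 to 293 in the arrays numbered 1 and 2. cox1, a core subunit of cytochrome c oxidase, had 274 to 305 in the arrays numbered 3 of chl1-5, chl1-12, T101A and T101D and 209 in that of col. It had 120 in the third chl1-9 array, against 501 and 423 in the first and second. nad5 and ccb206 did not share this, with 56.7 and 44.5 in the third chl1-9 array, against 67.6 and 52.1 and against 51.5 and 45.3. These genes were chosen after their values were seen.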
